A study of Mus musculus with 6 samples.

Results

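The genes described here are 10 genes of the integrated stress response: the transcription factors Atf4, Ddit3 and Atf3, the regulators Trib3, Chac1 and Sesn2, the amino acid synthesis genes Asns, Psat1 and Phgdh, and the secreted factor Gdf15. They were taken by name as a standard set of ATF4 and CHOP (encoded by Ddit3) genes. They are 10 of the 55487 genes in the count table. Of these 10, 9 passed the filter on low counts, as did 14046 genes of the whole table, and Phgdh did not.

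Livers came from 6 wild-type male C57BL/6J mice fed a normal chow diet and killed at 17 weeks of age, with 1 mRNA library per mouse. The 3 control mice received GalNAc-siNC, a control siRNA, and the 3 treated mice received GalNAc-siRnf10, an siRNA against Rnf10, a ubiquitin ligase gene. Both were injected under the skin as conjugates with N-acetylgalactosamine (GalNAc), which binds the asialoglycoprotein receptor of hepatocytes. The mice of the groups were different animals, the main test held no term for batch, and no uninjected mice were analysed here. Whole liver was sequenced, so fewer cells of a type and less RNA per cell cannot be told apart.

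Total counts per library were 33058645, 28430868 and 29893592 in GalNAc-siNC-treated mice 1 to 3, and 26854377, 31621131 and 28117077 in GalNAc-siRnf10-treated mice 1 to 3. Rnf10 averaged 4148 ± 347 normalized counts in GalNAc-siNC-treated mice and 1784 ± 41.8 in GalNAc-siRnf10-treated mice (SD, n = 3 mice each), with the libraries in the direction of their labels. Normalized counts here are counts scaled by library size with TMM (trimmed mean of M-values) factors. Fold changes compare GalNAc-siRnf10 with GalNAc-siNC. A gene was said to rise or fall where the quasi-likelihood test of edgeR gave an adjusted p under 0.05 (Benjamini-Hochberg, over the 14046 tested genes), and the adjusted p-values below are from that test.

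The integrated stress response begins with phosphorylation of the translation factor eIF2 by a kinase that senses a stress, such as unfolded protein in the endoplasmic reticulum (PERK), uncharged tRNA (GCN2), double-stranded RNA (PKR) or heme shortage (HRI). Protein synthesis then slows, while translation of Atf4 mRNA increases, so that much of the control of ATF4 lies in its translation rather than in its mRNA. ATF4 protein, alone or with partners such as CHOP and C/EBP family members, binds C/EBP-ATF response elements (CARE) and induces genes for amino acid synthesis and transport, redox balance and feedback control. Gdf15 is a target of ATF4 and CHOP, and hepatocytes release it as a hormone that lowers food intake through a receptor in the hindbrain. Protein and eIF2 phosphorylation were not measured in these data.

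The CARE core was looked for in the promoters of the 10 genes, because it is the element through which the group is known to be linked. RefSeq promoters (GRCm38.p6, 250 bases before to 50 bases after a start site) were found for all 10 genes, 12 promoters in all. The letters TGATGNAA, on either strand, were present in the promoters of Atf3, Chac1, Trib3 and Asns, and in 1304 of 32851 promoters of this length (3.97%). The 4 matches are shown 5′ to 3′ on the strand of the gene with 10 bases on each side. Capitals mark the 8 bases of the match, which read as the reverse complement in the first 3.
Atf3: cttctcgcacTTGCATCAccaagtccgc
Chac1: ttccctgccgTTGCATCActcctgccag
Trib3: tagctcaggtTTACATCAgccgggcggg
Asns: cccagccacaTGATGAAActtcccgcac

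These windows lie at chr1:191183426-191183453 on the minus strand for Atf3, chr2:119351039-119351066 on the plus strand for Chac1, chr2:152344029-152344056 on the minus strand for Trib3 and chr6:7693215-7693242 on the minus strand for Asns. Counted in bases from the RefSeq start site, the match began at -110 in Atf3, -193 in Chac1, -23 in Asns and 14 in Trib3. The cyclic AMP response element TGACGTCA, on either strand, was in none of the 12 promoters and in 588 of the 32851 (1.79%). A match of letters is a description of the window and was not tested as a binding site.

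Of the 9 tested genes, 2 rose in GalNAc-siRnf10-treated mice (Asns and Gdf15) and none fell, in edgeR as in DESeq2 and limma voom, while 14.0% of all tested genes were called, 6.71% as higher and 7.28% as lower. With 1 mouse left out, 1 to 5 were called, and the fit without GalNAc-siNC-treated mouse 1 called 3 higher and 2 lower (Trib3 and Chac1). Before adjustment, 5 of the 9 had a p under 0.05, as did 3754 of the 14046 tested genes. The median log2 fold change of the 9 was 0.43, and that of all tested genes was 0.0022. The groups were fully separate for 5 of the 9 (Trib3, Chac1, Sesn2, Asns and Gdf15), against 32.8% of all tested genes. These 5 did not move in 1 direction: Sesn2, Asns and Gdf15 were higher in all 3 GalNAc-siRnf10-treated mice, and Trib3 and Chac1 were lower in all 3.

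**Figure D1:**
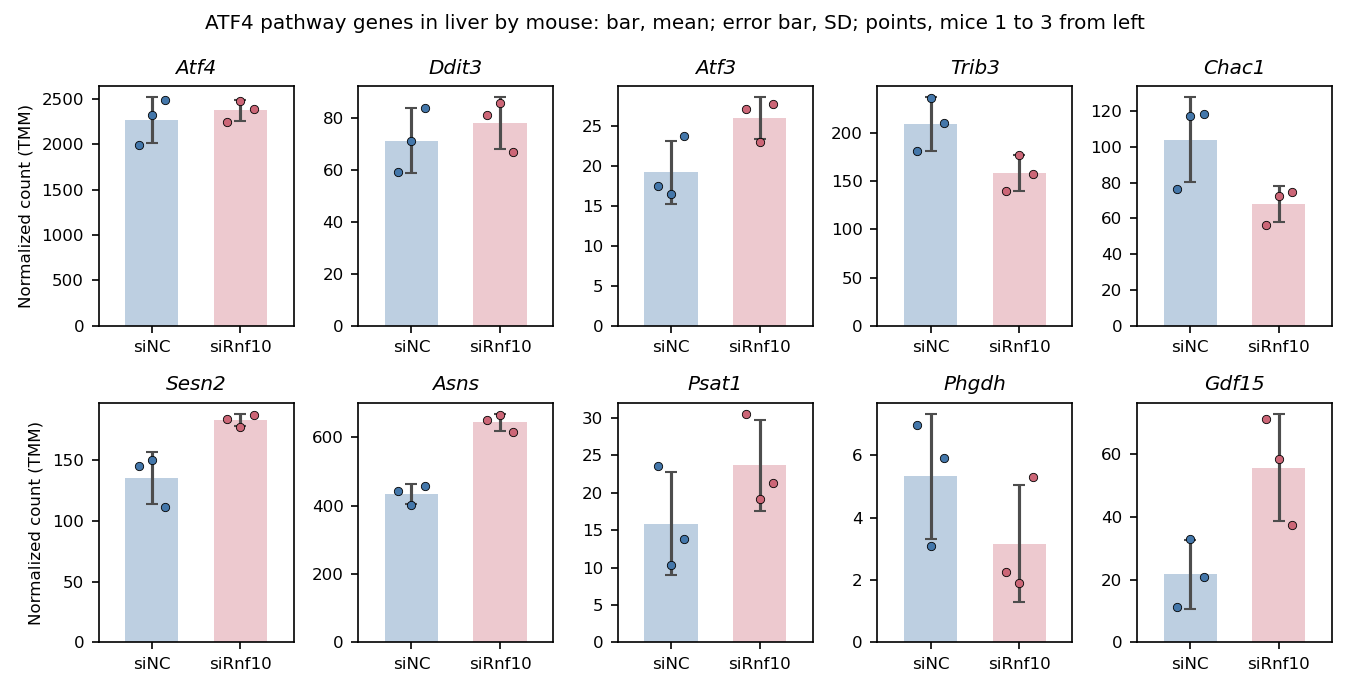
Normalized counts (TMM, y axis, a separate scale for each gene) of the 10 genes in 3 GalNAc-siNC-treated (blue) and 3 GalNAc-siRnf10-treated (red) mice. Bars are means, error bars are SD and points are mice 1 to 3 from left to right. Sesn2, Asns and Gdf15 lie higher and Trib3 and Chac1 lower in every GalNAc-siRnf10-treated mouse, and the points of Atf4 overlap. Only Asns and Gdf15 were called.

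Atf4 (chr15:80255184-80257541, plus strand, gene coordinates here and below from GENCODE M21 on GRCm38) encodes the central transcription factor of the response. It had 1995, 2320 and 2484 normalized counts in GalNAc-siNC-treated mice and 2249, 2474 and 2392 in GalNAc-siRnf10-treated mice. The groups overlapped, with the lowest and the highest value both among the controls. The log2 fold change was 0.07 (SE 0.0801, 95% interval -0.1 to 0.24, adjusted p = 0.652). Its upper bound of 0.24 leaves room for a small difference in the mRNA. Without GalNAc-siNC-treated mouse 1 the estimate was -0.02, so its sign rested on that mouse.

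Ddit3 (chr10:127290774-127296288, plus strand) encodes CHOP, the partner of ATF4 that is known for promoting cell death under lasting stress. Its normalized counts were 59.2, 71.2 and 84.0 in GalNAc-siNC-treated mice and 81.4, 86.1 and 67.1 in GalNAc-siRnf10-treated mice, and the groups overlapped (log2 fold change 0.13, SE 0.21, adjusted p = 0.737). The level of Ddit3 is uncertain, because its exons share 68 bases with the tRNA synthetase gene Mars on the opposite strand, which had 1394 to 1851 counts per library, and whether the counting used the strand is not given in the sources used here. A shorter gene model with the same symbol shares 105 bases with it on the same strand. That model had 0 counts in every library and was not used. How reads in the shared bases were counted is not given in the sources used here.

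Atf3 (chr1:191170296-191218039, minus strand) encodes an immediate stress-induced factor that acts downstream of ATF4. It had 17.4, 16.5 and 23.7 normalized counts in GalNAc-siNC-treated mice and 27.1, 22.9 and 27.7 in GalNAc-siRnf10-treated mice. GalNAc-siRnf10-treated mouse 2 lay below GalNAc-siNC-treated mouse 3, so the groups overlapped. At this depth of about 20 counts the interval was wide (log2 fold change 0.43, SE 0.347, 95% interval -0.3 to 1.16, adjusted p = 0.472). None of the 3 transcription factors was called in any of the alternative fits.

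Trib3 (chr2:152337422-152344032, minus strand) encodes a pseudokinase induced by ATF4 and CHOP that binds ATF4 and limits its activity. It had 181, 236 and 210 normalized counts in GalNAc-siNC-treated mice and 140, 177 and 157 in GalNAc-siRnf10-treated mice. All 3 values of the treated mice lay below the controls, by a narrow gap of 177 against 181. The ratio of the means was 0.754, and the difference did not pass the test (log2 fold change -0.4, SE 0.148, 95% interval -0.71 to -0.09, adjusted p = 0.0858).

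Chac1 (chr2:119351229-119354381, plus strand) encodes an enzyme that breaks down glutathione and is among the most inducible targets of ATF4 and CHOP. Its normalized counts were 76.6, 117 and 118 in GalNAc-siNC-treated mice and 56.5, 72.7 and 74.5 in GalNAc-siRnf10-treated mice. The 3 treated mice were again the 3 lowest, although GalNAc-siNC-treated mouse 1 lay close to them. The ratio of the means was 0.656 and the log2 fold change -0.6 (SE 0.215, 95% interval -1.05 to -0.14, adjusted p = 0.0763). With no filter on low counts Chac1 was called at the threshold (adjusted p = 0.05 after rounding), and without GalNAc-siNC-treated mouse 1 its log2 fold change was -0.78 with an adjusted p of 0.00611.

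Sesn2 (chr4:132492032-132510501, minus strand) encodes sestrin 2, a leucine sensor that restrains the growth kinase complex mTORC1. It had 145, 150 and 111 normalized counts in GalNAc-siNC-treated mice and 184, 177 and 187 in GalNAc-siRnf10-treated mice. The treated mice lay close together, with an SD of 5.41 against 21.3 in the controls, and above every control. The mean was 35.2% higher, a difference that did not pass the test (log2 fold change 0.43, SE 0.152, 95% interval 0.11 to 0.76, adjusted p = 0.0694). Trib3, Chac1 and Sesn2 were each called in 1 of the 6 fits with a mouse left out, the one without GalNAc-siNC-treated mouse 1 (adjusted p = 0.0159, 0.00611 and 0.0339).

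Asns (chr6:7675169-7693254, minus strand) encodes asparagine synthetase, which makes asparagine from aspartate and glutamine and is a classic readout of the amino acid response. It rose 1.48-fold. Asns had 444, 402 and 458 normalized counts in GalNAc-siNC-treated mice (435 ± 29.2, SD, n = 3) and 651, 665 and 617 in GalNAc-siRnf10-treated mice (644 ± 25.1, SD, n = 3). The gap between the groups was several times the spread within either. The log2 fold change was 0.57 (SE 0.0953, 95% interval 0.37 to 0.77, adjusted p = 0.000549), and an exact two-sided permutation test gave p = 0.1, the smallest that 3 mice against 3 allow. The call held in 6 of the 6 fits with a mouse left out, where the log2 fold change was 0.51 to 0.60 and the adjusted p was 1.86e-05 to 0.00762.

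Psat1 (chr19:15904678-15947337, minus strand) and Phgdh (chr3:98313170-98339990, minus strand) encode enzymes that make serine from a glycolytic intermediate, and both had low counts in these livers. Psat1 had 23.5, 10.3 and 13.8 normalized counts in GalNAc-siNC-treated mice and 30.5, 19.1 and 21.3 in GalNAc-siRnf10-treated mice. The groups overlapped, and the interval was wide (log2 fold change 0.54, SE 0.406, 95% interval -0.31 to 1.4, adjusted p = 0.429). Phgdh had 8, 3 and 6 counts in GalNAc-siNC-treated mice and 2, 2 and 5 in GalNAc-siRnf10-treated mice. It was left out of the test by the filter, its groups overlapped, and no fold is given at this depth.

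Gdf15 (chr8:70629393-70632456, minus strand) had the largest estimated fold change of the 9 tested genes. Its deposited counts were 13, 32 and 21 in GalNAc-siNC-treated mice and 63, 61 and 35 in GalNAc-siRnf10-treated mice. As normalized counts these were 11.3, 33.0 and 20.7 against 71.2, 58.3 and 37.3. The groups did not overlap, but GalNAc-siRnf10-treated mouse 3 was only slightly above GalNAc-siNC-treated mouse 2. The mean was 21.7 ± 10.9 in the controls and 55.6 ± 17.1 in the treated mice (SD, n = 3 each), which is 2.56-fold. Gdf15 rose with a log2 fold change of 1.37 (SE 0.365, 95% interval 0.6 to 2.14, adjusted p = 0.0178), and the exact two-sided permutation test gave the smallest possible p of 0.1.

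The call of Gdf15 was less stable than that of Asns. It held in 3 of the 6 fits with a mouse left out, in which the log2 fold change was 1.05 to 1.80. It was lost without GalNAc-siNC-treated mouse 3 (1.35, adjusted p = 0.056), without GalNAc-siRnf10-treated mouse 1 (1.16, adjusted p = 0.11) and without GalNAc-siRnf10-treated mouse 2 (1.33, adjusted p = 0.0716). Small counts in this table were more often even than odd, with 62.7% to 64.8% even values among counts of 1 to 20 in each library. If mates of a read pair were counted separately, then Gdf15, Atf3, Psat1 and Phgdh rest on fewer fragments than their counts show, which could not be settled from the files.

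**Figure D2:**
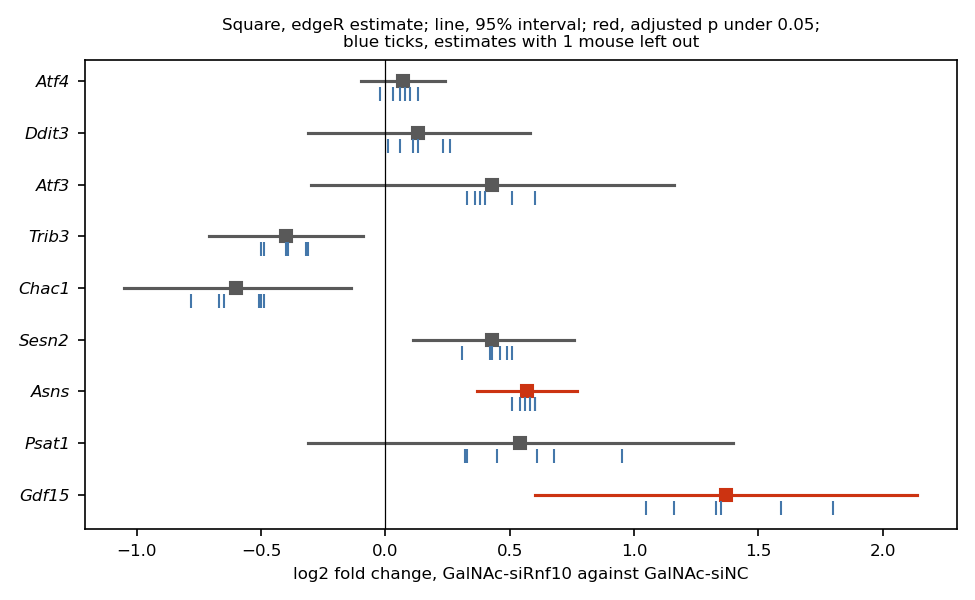
log2 fold change of GalNAc-siRnf10 against GalNAc-siNC for the 9 tested genes (x axis). Squares are edgeR estimates, lines are 95% intervals, red marks an adjusted p under 0.05, and blue ticks are the estimates with 1 of the 6 mice left out. Asns (0.57) has a short interval and closely spaced ticks, Gdf15 (1.37) has a long interval, and Trib3 and Chac1 lie below 0.

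Compared per length, the 10 genes spanned a wide range in control liver. In GalNAc-siNC-treated mice, the level in CPM (library-size scaled counts) per kilobase of gene model was 32.4 ± 3.56 for Atf4, 5.36 ± 0.36 for Asns, 3.32 ± 0.438 for Trib3 and 2.13 ± 0.481 for Chac1 (SD, n = 3). Below these came Ddit3 at 1.41 ± 0.244, Sesn2 at 1.31 ± 0.207, Gdf15 at 0.395 ± 0.198, Atf3 at 0.301 ± 0.0615, Psat1 at 0.126 ± 0.0541 and Phgdh at 0.0723 ± 0.0272 CPM per kilobase. Neighbours in this order whose mice overlapped were Chac1 and Ddit3, Ddit3 and Sesn2, Gdf15 and Atf3, and Psat1 and Phgdh. The mRNA of the factor itself was thus the most abundant of the set, and that of Gdf15 was about as low as that of Atf3.

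In GalNAc-siRnf10-treated mice the order changed only in the middle, where Sesn2 at 1.77 and Ddit3 at 1.54 CPM per kilobase came before Chac1 at 1.4. The mice overlapped between Ddit3 and Chac1 and between Chac1 and Gdf15, which stood at 1.01 CPM per kilobase, and not between Sesn2 and Ddit3. Asns stood at 7.94, second after Atf4 at 33.9.

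**Figure D3:**
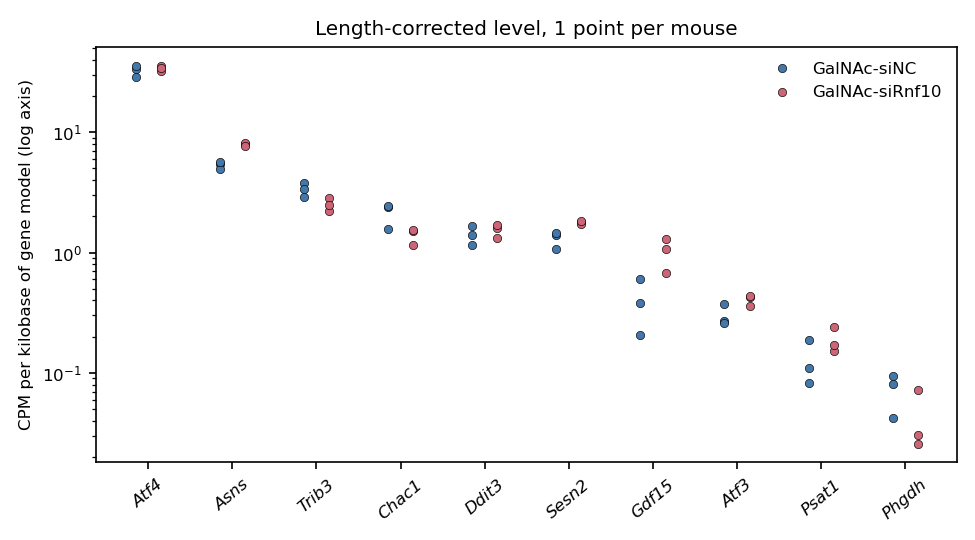
Level in CPM per kilobase of gene model (y axis, log scale) of the 10 genes, ordered by their mean in GalNAc-siNC-treated mice, with 1 point per mouse in each group. Atf4 lies above all others in both groups, and Gdf15 moves from 0.395 on average to 1.01.

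The eIF2 kinases are the sensors upstream of the set. None of the 4 was called, beside 14.0% of all tested genes. Eif2ak3 (PERK) had 565, 557 and 533 normalized counts in GalNAc-siNC-treated mice and 476, 455 and 436 in GalNAc-siRnf10-treated mice, without overlap, and a log2 fold change of -0.28 (SE 0.0942, adjusted p = 0.0621). Eif2ak2 (PKR) had 693, 619 and 697 against 604, 520 and 607, also without overlap (log2 fold change -0.22, adjusted p = 0.158). Eif2ak4 (GCN2) had 285, 296 and 298 against 267, 275 and 269, again without overlap, a difference of -0.11 on the log2 scale (adjusted p = 0.563). Groups did not overlap for 32.8% of all tested genes. Eif2ak1 (HRI) overlapped between groups (log2 fold change -0.10, adjusted p = 0.429). All 4 estimates were below 0, as were 6980 of the 14046 tested genes, and none passed the test.

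Across the 11 genes of the list of eIF2 kinases, their regulators and eIF2 phosphatase subunits, 0 were called (14.0% of all tested genes), 7 did not overlap between groups (32.8% of all tested genes) and 5 had an unadjusted p under 0.05 (3754 of the 14046 tested genes), with a median log2 fold change of -0.11. Of the 8 subunits of eIF2 and of its exchange factor eIF2B, 0 were called by edgeR, 0 had an unadjusted p under 0.05 and all 8 overlapped (median 0.037, from -0.07 to 0.12). DESeq2 and limma voom also called 0 genes of both lists. Of the kinase and phosphatase list, 1 gene was called lower with no filter on low counts and without GalNAc-siNC-treated mouse 2, and 1 was called higher and 1 lower without GalNAc-siNC-treated mouse 1.

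Among other amino acid synthesis and one-carbon genes induced by ATF4, 10 of the 11 listed were tested, and 4 rose, none fell and 6 were not called, against 6.71% called higher and 7.28% called lower among all tested genes. The median log2 fold change of the 10 was 0.037, with 6 estimates above 0 and 4 below. Mthfd1l, a mitochondrial enzyme that makes formate from folate-bound one-carbon units, had 13.9, 37.1 and 34.6 normalized counts in GalNAc-siNC-treated mice and 94.9, 88.9 and 71.4 in GalNAc-siRnf10-treated mice. It rose 2.98-fold (log2 fold change 1.59, SE 0.299, adjusted p = 0.00145). Its groups were far apart, though GalNAc-siNC-treated mouse 1 was the lowest of all, as it was for Gdf15.

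Got1, the cytosolic aspartate aminotransferase, had 4145, 4818 and 4376 normalized counts in GalNAc-siNC-treated mice and 10331, 10310 and 10326 in GalNAc-siRnf10-treated mice. It rose 2.32-fold (log2 fold change 1.22, SE 0.0629, adjusted p = 7.62e-10). Cth, the enzyme that releases cysteine from cystathionine, had 7034, 6923 and 7082 against 12484, 12057 and 11905, a rise of 1.73-fold (log2 fold change 0.79, SE 0.0537, adjusted p = 1.78e-08). Both genes are highly expressed in liver and also serve gluconeogenesis and sulfur amino acid breakdown outside the stress response. Gpt2, mitochondrial alanine aminotransferase, rose 1.24-fold (log2 fold change 0.31, adjusted p = 0.000574).

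Of the serine and mitochondrial folate enzymes of the list, to whose pathway Psat1 and Phgdh belong, Mthfd1l alone was called, beside 14.0% called among all tested genes. Psph, Shmt2 and Mthfd2 had log2 fold changes of 0.07, -0.06 and -0.20 with overlapping groups in each, none of them was called, and Aldh1l2 was not tested. These 4 genes were picked for mention after their values were seen, and their difference from Mthfd1l was not tested.

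Of 9 amino acid transporter genes, 7 were tested, of which 2 rose, 1 fell and 4 were not called, beside 14.0% called among all tested genes. The median log2 fold change of the 7 was -0.13, with 2 estimates above 0 and 5 below. Slc38a2, a sodium-coupled carrier of neutral amino acids, had 4795, 4004 and 4193 normalized counts in GalNAc-siNC-treated mice and 8778, 8459 and 8242 in GalNAc-siRnf10-treated mice, a rise of 1.96-fold (log2 fold change 0.97, SE 0.0686, adjusted p = 2.97e-08). Slc1a5, a glutamine exchanger, had 60.1, 65.0 and 68.2 against 120, 94.7 and 104 (log2 fold change 0.72, SE 0.19, adjusted p = 0.0169). Slc6a9, a glycine carrier, fell from 759, 665 and 598 to 518, 561 and 461 (log2 fold change -0.39, SE 0.108, adjusted p = 0.0207). The calls of Slc1a5 and Slc6a9 each held in 4 of the 6 fits with a mouse left out, and that of Slc38a2 in 6.

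Cytosolic tRNA synthetase genes are a group that ATF4 is known to induce broadly. With the tRNA export factor Xpot, the list had 13 genes, and 0 were called higher (also 0 in DESeq2 and in limma voom, and 1 without GalNAc-siNC-treated mouse 1), 1 was called lower and the median log2 fold change was -0.07 (from -0.23 to 0.18). Among all tested genes 6.71% were called higher and 7.28% lower, so in a list of 13 these counts are close to the background. The gene that fell was Aars, the alanine enzyme (log2 fold change -0.23, SE 0.0585, adjusted p = 0.015), and this call held in 3 of the 6 fits with a mouse left out.

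The list of other ATF4 and CHOP partners and targets had 12 tested genes of 13, of which 2 rose, 1 fell and 9 were not called, beside 14.0% called among all tested genes. Ddit4 encodes REDD1, an inhibitor of mTORC1 that is also known to respond to hypoxia and glucocorticoids. It had 81.8, 107 and 80.0 normalized counts in GalNAc-siNC-treated mice and 517, 433 and 501 in GalNAc-siRnf10-treated mice, a rise of 5.39-fold (log2 fold change 2.43, SE 0.141, adjusted p = 2.9e-09). Its estimate was above that of each of the 9 tested genes of the set, a difference that was not tested, and the call held in 6 of the 6 fits with a mouse left out. Cebpg, a C/EBP protein that pairs with ATF4, rose (log2 fold change 0.26, SE 0.0721, adjusted p = 0.0226), but the call held in only 1 of those 6 fits.

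Bbc3, which encodes the cell death protein PUMA, had 171, 235 and 177 normalized counts in GalNAc-siNC-treated mice and 139, 127 and 114 in GalNAc-siRnf10-treated mice. It fell, with a log2 fold change of -0.62 (SE 0.161, adjusted p = 0.016), a call that held in 3 of the 6 fits with a mouse left out. Fgf21, a stress hormone of the liver that is often measured together with Gdf15, had 15.7, 11.3 and 11.9 normalized counts in GalNAc-siNC-treated mice and 13.6, 9.56 and 9.58 in GalNAc-siRnf10-treated mice. The groups overlapped (log2 fold change -0.26, SE 0.452, adjusted p = 0.762), and at this depth a change of moderate size in either direction was not detectable.

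Among the paralogs of Trib3, Sesn2 and Chac1, 5 of 5 were tested, and 1 rose and none fell, a share close to the 14.0% called among all tested genes. The gene that rose was Chac2, the paralog of Chac1, with 740, 651 and 766 normalized counts in GalNAc-siNC-treated mice and 812, 933 and 963 in GalNAc-siRnf10-treated mice (log2 fold change 0.33, SE 0.093, adjusted p = 0.025). Chac2 and Chac1 thus had estimates of opposite sign, and the difference between them was not tested. The call of Chac2 held in 3 of the 6 fits with a mouse left out.

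ER chaperone and unfolded protein response genes are controlled mainly by XBP1 and ATF6, the arms that run beside PERK and ATF4. In this list 14 of 14 genes were tested, of which 9 fell, 1 rose and 4 were not called, against 7.28% called lower and 6.71% called higher among all tested genes, and 12 did not overlap between groups, against 32.8% of all tested genes. With 1 mouse left out, 6 to 11 were called lower, 6 without GalNAc-siRnf10-treated mouse 2. The median log2 fold change was -0.29, against 0.0022 for all tested genes. Xbp1 had 10534, 9897 and 10180 normalized counts in GalNAc-siNC-treated mice and 7138, 7558 and 7098 in GalNAc-siRnf10-treated mice (log2 fold change -0.49, SE 0.0562, adjusted p = 1.02e-05). The disulfide isomerase gene Pdia4 had 8141, 8056 and 7441 against 5911, 5668 and 5727 (log2 fold change -0.45, SE 0.0585, adjusted p = 4.32e-05).

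The cochaperone genes Sdf2l1 and Dnajb11 fell by 0.41 and 0.39 on the log2 scale (adjusted p = 0.00952 and 0.000656). The exception was Herpud1, which takes part in degradation of ER proteins and is induced by ATF4 as well as by the other arms. It had 7315, 7859 and 7068 normalized counts in GalNAc-siNC-treated mice and 13372, 13923 and 13679 in GalNAc-siRnf10-treated mice, a rise of 1.84-fold (log2 fold change 0.88, SE 0.0573, adjusted p = 1.18e-08). Calls of Xbp1, Pdia4, Dnajb11 and Herpud1 held in 6 of the 6 fits with a mouse left out, and that of Sdf2l1 in 3.

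**Figure D4:**
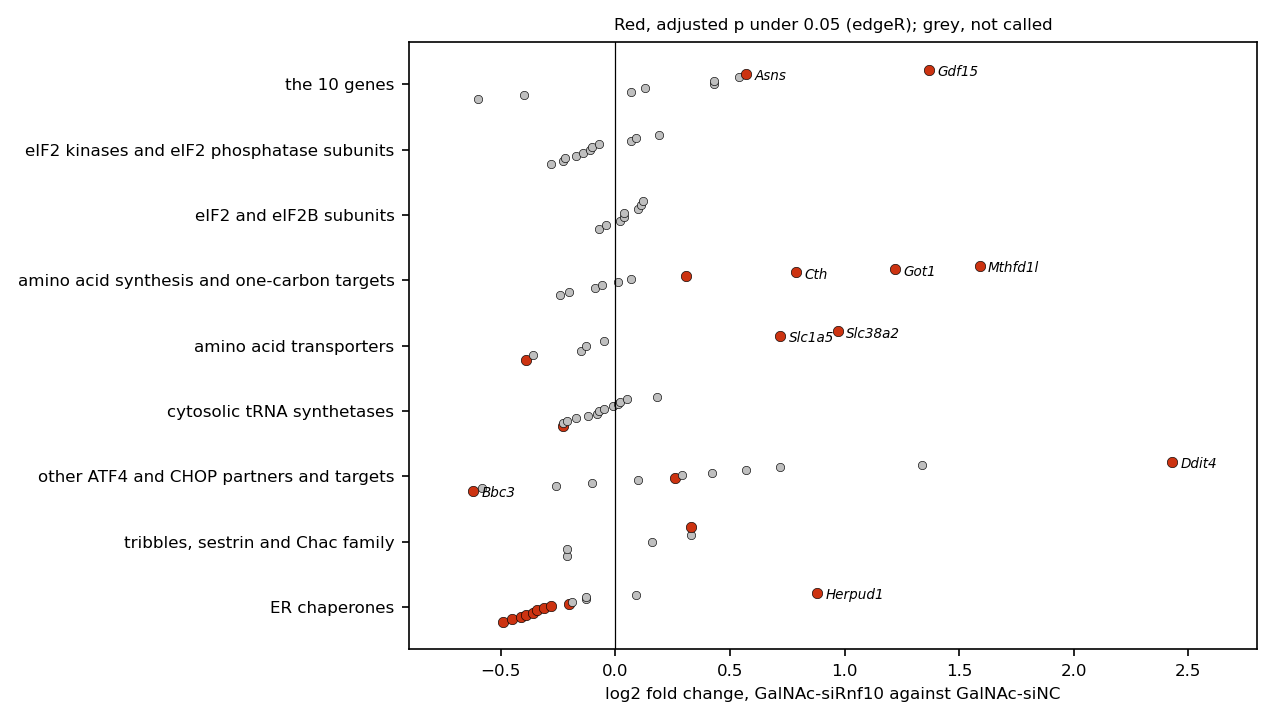
log2 fold change (x axis) of each tested gene of the set of 10 and of the wider pathway lists (y axis), 1 point per gene, red where the adjusted p was under 0.05 in edgeR. Called genes of the amino acid synthesis list all lie above 0, from Gpt2 (0.31, no label) to Mthfd1l (1.59). The list marked ER chaperones also holds other unfolded protein response genes. Of its 14 genes, 9 were called below 0, and Herpud1 lies at 0.88.

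No counts were found for the receptor of Gdf15. Gfral, the receptor, and Ret, the kinase through which it signals, had 0 counts in all 6 libraries, which allows a share of up to 1.12e-05% of the counts of the shallowest library (3 counts, counting error only). Of 7 tested relatives of Gdf15 in the transforming growth factor beta family, 3 fell and none rose, against 7.28% and 6.71% of all tested genes. Those that fell were Inhbe (log2 fold change -0.63, adjusted p = 1.31e-05), Inhba (-0.54, adjusted p = 0.00156) and Inhbc (-0.3, adjusted p = 0.00606), which encode inhibin subunits. The other 4 were not called, and of the 7 estimates 3 were above 0 and 4 below. The calls of Inhbe and Inhba held in 6 of the 6 fits with a mouse left out, and that of Inhbc in 5.

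The genes whose log2 CPM followed Gdf15 most closely over the 6 libraries, among the 10945 tested genes that averaged 50 normalized counts or more, were Naxe (Pearson r = 0.9984), Rpl23a-ps3 (0.998), Mrm3 (0.9969), Mettl7b (0.9922) and Paox (0.9912). For Atf4, among 10944 such genes, they were Znhit1 (0.9952), Bag5 (0.9891), Psma3 (0.9857), Bloc1s4 (0.9851) and Eci1 (0.9827). Gdf15, Atf3, Psat1 and Phgdh averaged too few counts to be ranked. These values describe 6 points that include the difference between the groups and share library depth, and they were picked as the highest of many.

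GalNAc-siNC-treated mouse 1 stood apart from the other controls across genes. The root mean square difference in log2 CPM over 10945 genes was 0.312 and 0.305 between it and the other controls, 0.227 between those 2, and 0.196 to 0.201 between GalNAc-siRnf10-treated mice. It was the lowest control for 5 of the 10 genes (Atf4, Ddit3, Trib3, Chac1 and Gdf15) and the highest for Psat1 and Phgdh. Without it, 5 of the 9 tested genes were called: Asns, Sesn2 and Gdf15 higher, and Trib3 and Chac1 lower. In that fit 2864 of 14343 tested genes were called, against 1965 of 14046 with all mice.

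Some markers of liver cell types differed between the groups. Those of Kupffer cells and lymphocytes held no gene called with all mice, and the lists were not tested against each other. Among all tested genes 6.71% were called higher and 7.28% lower. Summed hepatocyte markers were 1810606, 1705839 and 1753204 normalized counts in GalNAc-siNC-treated mice and 2606708, 2551407 and 2522673 in GalNAc-siRnf10-treated mice, with 5 of 8 called higher (3 without GalNAc-siNC-treated mouse 2) and Alb making up 68.7% of the sum. The stellate cell sum was 3051, 2966 and 3018 against 3780, 3634 and 3608, with 3 of 5 called higher and Dcn the most abundant at 49.7%. Only 1 of them was called without GalNAc-siRnf10-treated mouse 1 or mouse 2 and 2 with the replicate block, and the other stellate markers, Lrat and Des, had log2 fold changes of -0.27 and -0.20 and were not called. The liver label was borne out by the abundance of Alb, Ttr and Cps1, which code for albumin, transthyretin and a urea cycle enzyme.

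The endothelial sum was 1882, 1927 and 1913 against 2116, 2044 and 2038, with 2 of 6 called higher, beside 6.71% of all tested genes called higher and 7.28% called lower. Stab2, the most abundant at 32.8%, was lower in all 3 GalNAc-siRnf10-treated mice (log2 fold change -0.26, adjusted p = 0.0544). Of the calls, that of Lyve1 held in 1 of the 6 fits with a mouse left out and was lost in DESeq2 and with the replicate block, and 1 endothelial gene was called lower with at least 10 counts in every library and without GalNAc-siNC-treated mouse 1. The cholangiocyte sum was 2033, 2033 and 2073 against 1143, 1154 and 1122, with 1 of 5 called lower, Spp1, which made up 88.5% (2 called with the replicate block, with no filter and without GalNAc-siNC-treated mouse 1). The neutrophil sum was 31.3, 54.7 and 67.2 against 23.7, 19.1 and 17.0, with 1 of 4 genes tested and called lower (S100a9, 73.5% of the sum), a call that held in 1 of the 6 fits with a mouse left out.

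The Kupffer cell sum was 5499, 6761 and 6553 against 6581, 6266 and 6274, with 0 of 8 called by edgeR (1 called lower without GalNAc-siNC-treated mouse 1) and 1 at an unadjusted p under 0.05, and Clec4f at 31.7%. The lymphocyte sum was 233, 202 and 156 against 222, 240 and 176, with 2 of 5 genes tested, 0 called and 0 at an unadjusted p under 0.05, and Ptprc at 85.2%. Among all tested genes 14.0% were called, and 3754 of the 14046 had an unadjusted p under 0.05. No marker of these lists was at 0 in every library. The part of these markers in the values of Asns, Gdf15 and the other stress response genes was not tested.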

How the data were processed

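Total liver RNA was made into stranded mRNA libraries by the authors, sequenced as paired 150-base reads and mapped to GRCm38 (mm10) with HISAT2. They deposited raw counts per gene, without normalization, with the length of each gene model. The counting tool, annotation release and strand setting are not given in the sources used here. Symbols and coordinates came from GENCODE M21, and 346 of the 55487 identifiers had no symbol.

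The tests used edgeR 4.0.16 in R 4.3.3 (filterByExpr, TMM, robust quasi-likelihood fit, treatment as the only term, common dispersion 0.00861). Alternatives were RLE factors, no filter, at least 10 counts in every library, DESeq2 1.42.0, limma voom 3.58.1, a replicate block and leaving out each mouse. Permutation tests used scipy 1.17.1.

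The genes and lists were chosen with earlier results of these data known. The text names the 10 genes, Rnf10, the eIF2 kinases, Fgf21, at most 5 called genes per other list, and the 5 genes most correlated with Gdf15 and with Atf4. Psph, Shmt2, Mthfd2, Aldh1l2, Cebpb, Xpot, Lrat, Des, Gfral, Ret and the most abundant marker of each cell type fall outside this rule and were named after their values were seen. Mars and Thra were named because their exons overlap those of Ddit3 and Nr1d1.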

Additional observations from a re-analysis of the deposited data

How the results depend on the processing

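Asns and Gdf15 were the called genes of the set with RLE factors, with at least 10 counts in every library, in DESeq2, in limma voom and with a replicate block (2 each), and no filter added Chac1. With 1 mouse left out, 1 to 5 of the set were called: 5 without GalNAc-siNC-treated mouse 1, and Asns alone without GalNAc-siNC-treated mouse 3, GalNAc-siRnf10-treated mouse 1 or GalNAc-siRnf10-treated mouse 2. Over all genes, 1965 were called, 1816 with the replicate block, 1888 to 2324 under the other alternatives, and 1053 (without GalNAc-siRnf10-treated mouse 1) to 2864 (without GalNAc-siNC-treated mouse 1) with 1 mouse left out. The counts without GalNAc-siRnf10-treated mouse 2 and without mouse 3 of that group were both 1128. These fits have fewer mice. Atf4 had -0.02 without GalNAc-siNC-treated mouse 1, in a range of -0.02 to 0.13 over the mice left out, and was called in none. It was the only estimate of the set to change sign. Of 43 other named genes, calls were lost in 47 of 514 combinations of gene and alternative, and no estimate changed sign. The 43 include the eIF2 kinases and Fgf21, which were not called with all mice and so had no call to lose. Deviations of same-numbered mice from their group means correlated at -0.001, 0.027 and -0.034 across genes. These values showed no sign that the numbers pair the mice, but they could not exclude it. Depth limited Gdf15, Atf3, Psat1 and Phgdh most, each with fewer than 70 counts in every library.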

Other observations

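Genes of the circadian clock, which sets daily rhythms in liver metabolism, also differed between the groups. Of 15 listed, 14 were tested, of which 5 rose, 1 fell and 8 were not called (median log2 fold change 0.16), beside 14.0% called among all tested genes. Per1, which encodes a repressor of the clock and also responds to glucocorticoids, had 332, 369 and 352 normalized counts in GalNAc-siNC-treated mice and 1226, 1102 and 1183 in GalNAc-siRnf10-treated mice (log2 fold change 1.74, adjusted p = 6.64e-10, edgeR). The clock repressor genes Ciart, Cry1 and Per2 had log2 fold changes of 1.29, 0.75 and 0.42 and were called. Nr1d1 fell by 0.68 on the log2 scale, and its exons share 263 bases with Thra on the opposite strand. The time of day at which each liver was taken is not given in the sources used here, and the part of sampling time in the stress response values was not tested.

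Inhbe, the inhibin subunit gene that is itself known as a hepatic stress-response target, had 2535, 2535 and 2307 normalized counts in GalNAc-siNC-treated mice and 1708, 1487 and 1578 in GalNAc-siRnf10-treated mice. It fell while Gdf15 rose, and its call held in 6 of the 6 fits with a mouse left out. Cebpb, which encodes a partner of ATF4 and was picked for mention after its values were seen, had 1648, 3966 and 3141 normalized counts in GalNAc-siNC-treated mice and 4302, 4065 and 4621 in GalNAc-siRnf10-treated mice. The groups did not overlap, the controls spread widely (SD 1170 around a mean of 2918), and the difference was not called (log2 fold change 0.57, adjusted p = 0.402).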
